A study of Homo sapiens with 2 samples.

Results

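The microRNAs (miRNAs) miR-183, miR-96 and miR-182 were examined in CL1-5, a human lung adenocarcinoma line selected for high invasiveness. Assays were taken by name: of 366 assays on the card, 4 read these 3 miRNAs, 1 each for miR-183 and miR-96 and 2, under different assay numbers, for miR-182. The vector control was 1 RNA sample of CL1-5 cells carrying the empty plasmid pcDNA3.1, and the other group was 1 RNA sample of CL1-5 cells overexpressing ANGPTL1, a secreted angiopoietin-like protein. Both lines had been kept for 4 weeks under G418, the antibiotic that selects for the plasmid, and stably expressing cells were used. Whether each line was 1 clone or a pool is not given in the sources used here. Mature miRNAs were measured by quantitative reverse-transcription PCR from 500 ng of total RNA in a run of 40 cycles, on a card of TaqMan assays. With 1 sample per group there is no replicate spread, so no difference below carries an error or a test, and each compares these 2 RNA samples.

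The 3 miRNAs are cut from hairpins that lie close together and are made from a single primary transcript. They were first known from sensory cells of the eye and ear, where miR-96 is needed for hearing, and the cluster is often raised in epithelial tumours. The stretch of bases 2 to 8 of a miRNA, its seed, does most of the target recognition. Among described targets are FOXO1, a transcription factor that restrains the cell cycle, for miR-96 and miR-182, and EZR, the membrane linker ezrin, for miR-183.

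The mature sequences are shown because they tell how far the members could share targets and how similar the templates of the assays are. They come from RefSeq on GRCh38.p14, in which all 3 names were matched, and are written 5′ to 3′ with the seed in capitals. Both arms of miR-182 are given because its 2 assays share a name and the name does not say which arm each reads; the names miR-183 and miR-96 carry no arm either, and the 5p arm, the main product of both hairpins, is shown.
miR-183-5p: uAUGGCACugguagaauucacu
miR-96-5p: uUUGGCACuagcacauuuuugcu
miR-182-5p: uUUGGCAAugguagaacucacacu
miR-182-3p: uGGUUCUAgacuugccaacua

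On the minus strand of chromosome 7, miR-183-5p lies at chr7:129774967-129774988, miR-96-5p at chr7:129774739-129774761 and miR-182-5p at chr7:129770447-129770470. In the direction of transcription miR-183 therefore comes first and miR-182 last. A stretch of 205 bases separates miR-183-5p from miR-96-5p, and 4268 bases separate miR-96-5p from miR-182-5p. In the RefSeq gene order the 3 hairpin genes follow each other with no other gene between them, flanked by the gene UBE2H on the side of miR-183 and by the long noncoding RNA LOC105375501 on the side of miR-182.

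The seeds of the 3 5p arms were all different, but by little. With positions counted from 1 at the 5′ end, the seeds of miR-183-5p and miR-96-5p differed by A2U, and those of miR-96-5p and miR-182-5p by C8A, so miR-96-5p and miR-182-5p had bases 2 to 7 in common. The seed of miR-183-5p differed from that of miR-182-5p by both A2U and C8A. Beyond the seed the order of likeness was another one. Set base against base from the 5′ end, miR-183-5p and miR-182-5p were the same at 18 of 22 positions, with U17C and U22A as the remaining differences, whereas miR-183-5p and miR-96-5p were the same at 13 of 22 and miR-96-5p and miR-182-5p at 12 of 23. Among 2370 mature miRNA names in RefSeq, bases 2 to 7 of miR-96-5p and miR-182-5p were found in 1 further miRNA, miR-1271-5p, and those of miR-183-5p in none. No other assay used here bore the name of a miRNA with these bases, so the comparison by seed stays within the cluster. Whether the assays for miR-182 and miR-183 read each other's template was not tested.

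The members stood at very different levels. The level is given as the threshold cycle (Ct), the point of the PCR, in cycles, where the fluorescence of an assay passes its threshold, an earlier cycle meaning more template. miR-182 (assay 4373271) was the earliest of the 4 assays, with 27.81 in vector cells and 28.58 in ANGPTL1 cells. miR-183 followed with 29.28 in vector cells and 31.25 in ANGPTL1 cells. miR-96 was far later, with 34.03 in vector cells and 36 in ANGPTL1 cells. The second assay named miR-182 (number 4378066) stood at 40, the last cycle, in both samples, which is read as no amplification. All 3 assays that amplified were later in ANGPTL1 cells, and the order of miR-182, miR-183 and miR-96 was that of both samples. The order is one of cycles: it also depends on how efficiently each assay copies its template, which the files do not give.

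**Figure D1:**
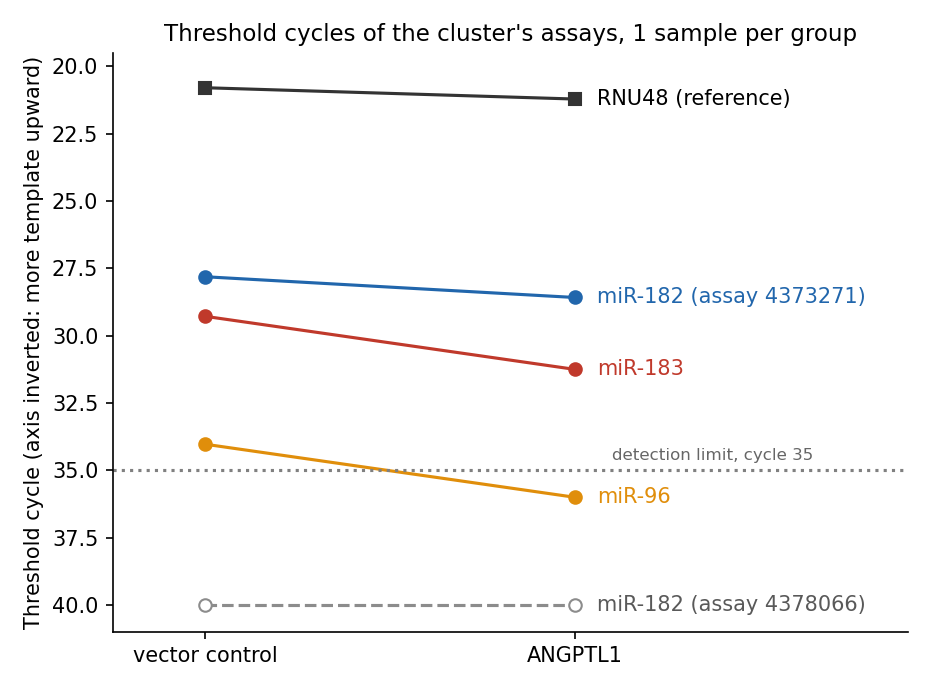
Threshold cycle (vertical axis, inverted so that more template is higher) of the 4 assays and of RNU48 in the vector control and ANGPTL1 samples, 1 sample each; lines join the same assay and open points mark cycle 40. The lines of miR-183 and miR-96 are parallel, each ending 1.97 cycles later in ANGPTL1 cells, and that of miR-182 (assay 4373271) ends 0.77 cycles later.

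Detection differed by member. A miRNA counted as detected below cycle 35, the limit used throughout. By this rule 3 of the 4 assays were detected in the control, beside 157 of all 365 miRNA assays. In ANGPTL1 cells 2 of the 4 were detected, beside 158 of all 365. The member counts differed because miR-96 lay before the limit in the control and after it in ANGPTL1 cells. miR-96 was thus 1 of 12 assays detected in the control alone, 3.29% of the 365 miRNA assays on the card. None of the 4 assays was detected in ANGPTL1 cells alone, where 13 of all 365 (3.56%) were. Ordered from the earliest cycle among all 365 miRNA assays, miR-182 (assay 4373271) held place 57 in vector cells and 61 in ANGPTL1 cells. For miR-183 the places were 75 and 105, and for miR-96 145 and 173. miR-182 thus had nearly the same place in both samples, while miR-183 and miR-96 came later in the order of ANGPTL1 cells.

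The level relative to RNU48, a small nucleolar RNA read as the endogenous control on the same card, was taken from delta Ct, the cycle of an assay less the cycle of RNU48. RNU48 itself stood at 20.79 in vector cells and 21.21 in ANGPTL1 cells, 0.42 cycles later. The delta Ct of miR-182 (assay 4373271) was 7.02 in vector cells and 7.37 in ANGPTL1 cells, or 0.77% and 0.605% of RNU48 if each cycle doubles the template in both assays. For miR-183 the delta Ct was 8.49 and 10.04, or 0.278% and 0.095% of RNU48. For miR-96 it was 13.24 and 14.79, or 0.0103% and 0.00353%, the second of these from a cycle later than the limit. On this linear scale, if both assays double their template, miR-96 was the scarcest of the 3, 26.9-fold below miR-183 in vector cells. In ANGPTL1 cells the fold was the same at the deposited cycle of miR-96, which is later than the limit.

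The log2 ratio between the samples is the delta Ct of vector cells less that of ANGPTL1 cells, and a negative value means less miRNA in ANGPTL1 cells relative to RNU48. For miR-183 it was -1.55, a level 2.93-fold lower in ANGPTL1 cells. For miR-182 (assay 4373271) it was -0.35, a level 1.27-fold lower, within 2-fold. Of the 2 member assays detected in both samples, 1 was therefore at least 2-fold lower and 0 at least 2-fold higher. Of all 145 such assays, 7 (4.83%) were at least 2-fold lower and 11 (7.59%) at least 2-fold higher. For miR-96 the cycle of 36 in ANGPTL1 cells was set to the limit of 35, which gives a level at least 1.46-fold lower. With the deposited cycle in place of the limit its log2 ratio was -1.55, the same as for miR-183, and the authors' deposited table gives a fold of 0.3415 of ANGPTL1 over control cells for both miR-183 and miR-96. Under other settings the count of members at least 2-fold lower was 1 without normalization to RNU48, where 20.0% of all 145 assays were that low. It was 2, miR-183 and miR-96, with a detection limit of 38 (6.25% of all) or 40 (6.42%). At 4-fold lower it was 0 (1.38% of all). For the second assay named miR-182, at cycle 40 in both samples, the fold of 1.338 in the authors' deposited table comes from RNU48 only and is no measurement of the miRNA.

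miR-183 was at place 3 from the lowest of the 145 ratios, while miR-182 (assay 4373271) was at place 40 from the lowest. The median over all 145 was -0.01. This order leaves out miRNAs detected in the control alone, some of which fell further than miR-183. Among them, miR-95 stood at 31.63 in vector cells and 35.4 in ANGPTL1 cells, and miR-510 at 29.25 and 40. To compare like levels, each member was also set beside miRNAs whose mean cycle lay within 1 cycle of its own. For miR-183, 31 other miRNAs did so. Their ratios ran from -3.58 to 3.58 with a median of 0.02, their robust SD (from the median absolute deviation) was 0.50, and 2 of them, miR-486 and miR-422b, were lower than miR-183. For miR-182 (assay 4373271) there were 24 others, with ratios from -0.65 to 1.88, a median of 0.05 and a robust SD of 0.39. The ratio of miR-183 thus lay 3.11 such SDs below the median of miRNAs of its own level, and that of miR-182 1.01 below. The spread over miRNAs holds real differences as well as noise and does not replace a replicate. For miR-96, 22 other assays before cycle 40 in both samples had a mean cycle within 1 of its own. Their log2 ratios ran from -2.26 to 3.06 with a median of 0.6, and 1 was lower than that of miR-96 at its deposited cycles. The rule leaves out miR-510, whose mean cycle also lay in this band, since it stood at 40 in ANGPTL1 cells.

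**Figure D2:**
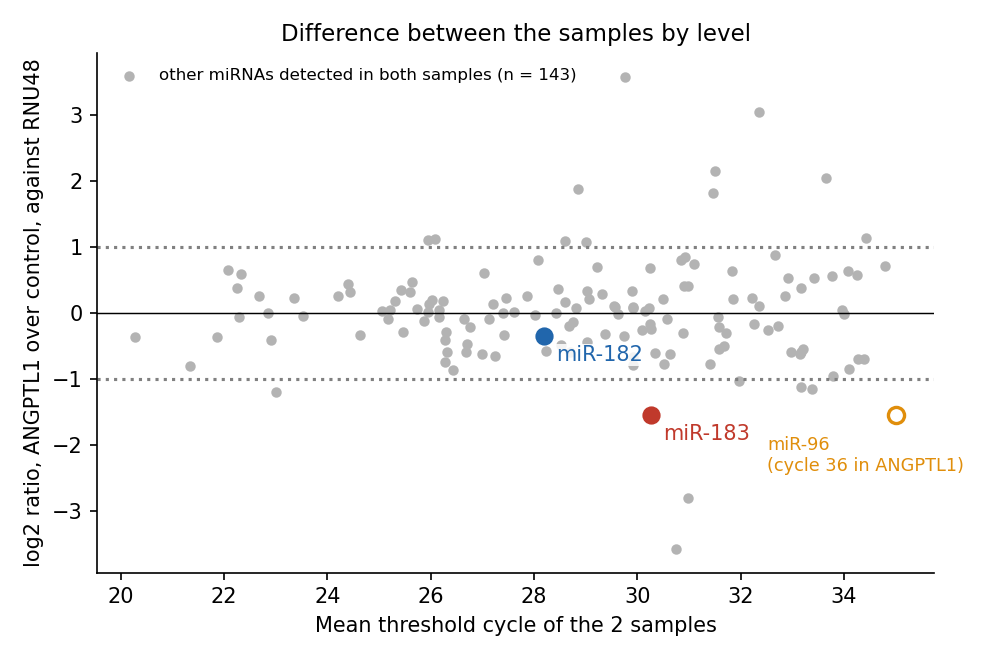
The log2 ratio of ANGPTL1 over control cells relative to RNU48 (vertical axis) against the mean threshold cycle of the 2 samples (horizontal axis). Filled points are the 145 miRNA assays detected in both samples, and dotted lines mark 2-fold. miR-183 at -1.55 lies below the lower dotted line and miR-182 (assay 4373271) at -0.35 above it; miR-96, drawn open at its deposited cycles, was detected in the control alone.

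The measured differences were unequal over the 3 assays of the transcript that amplified. The distance in cycles between a pair of members within a sample does not use RNU48, so it compares them free of the reference. miR-96 came 4.75 cycles after miR-183 in vector cells and 4.75 cycles after it in ANGPTL1 cells, a difference of 0.00. miR-183 came 1.47 cycles after miR-182 (assay 4373271) in vector cells and 2.67 cycles after it in ANGPTL1 cells, a difference of 1.20. miR-182 and miR-96 stood 6.22 cycles apart in vector cells and 7.42 in ANGPTL1 cells. This distance is the sum of the other 2, so its difference of 1.20 adds nothing to that of miR-182 and miR-183. The excess of miR-182 over miR-183, 2.77-fold in vector cells and 6.36-fold in ANGPTL1 cells if both assays double their template, was thus 2.3 times as large in ANGPTL1 cells. The pair at the same distance in both samples are the neighbours 205 bases apart, and the member that stood further from them in ANGPTL1 cells is the one 4268 bases along. Whether the position along the transcript has a part in this was not tested. The arm of the miR-182 hairpin that assay 4373271 reads is not given. The distances from miR-182 therefore hold for this assay. Whether the other arm of the hairpin stood at the same distances was not tested. With 3 members and 1 sample per group this is a description of the 2 RNA samples. The likeness of miR-183 and miR-96 to 0.01 cycle rests on a miR-96 cycle later than the limit. Of 187 assays before cycle 40 in both samples, 87 shared their cycle difference with at least 1 other assay; a difference of 1.97 was that of 2 assays, miR-183 and miR-96.

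Other groups of miRNAs that share a transcript gave the following spreads, from the lowest to the highest log2 ratio of members detected in both samples. In the cluster of miR-183 the spread was 1.20, between miR-183 and miR-182 (assay 4373271), the same quantity as the change in their distance given above. In the intron of MCM7, a gene of DNA replication, miR-106b, miR-93 and miR-25 spread over 0.86, from -1.20 for miR-93 to -0.34 for miR-106b. The 6 members of the 13q31 cluster from miR-17-5p to miR-92 spread over 0.29, miR-23b, miR-27b and miR-24 of 9q22 over 0.31, miR-23a, miR-27a and miR-24 of 19p13 over 0.27, and miR-221 and miR-222 of Xp11 over 0.61. miR-24 is made from both of its loci and so stands in both groups. The assay of miR-17-3p, the other arm of the miR-17 hairpin, was left out of the 13q31 group. It stood at a log2 ratio of -0.2, with cycles of 32.41 in vector cells and 33.03 in ANGPTL1 cells. With it the spreads of 13q31 in ratio and in cycles would be wider than those given here. The spread of 1.20 was thus the widest of these 6 groups, from only 2 detected assays. Which arm of its hairpin the miR-182 assay reads is not given. The other groups were a choice made with earlier results of these data known. Further miRNAs on the card that share a transcript were not compared, so the widest spread holds for these groups alone. No test of the difference between the groups was possible with 1 sample each. In level, the cycles of the 3 members that amplified spread over 6.22 in vector cells and 7.42 in ANGPTL1 cells. In vector cells the spread was wider in 3 of the other groups, with 6.92 cycles for 13q31, 7.17 for 19p13 and 8.68 for 9q22, and narrower in 2, with 4.28 for the MCM7 intron and 2.70 for Xp11. In ANGPTL1 cells it was 6.66 for 13q31, 7.44 for 19p13, 8.65 for 9q22, 3.70 for the MCM7 intron and 2.09 for Xp11. With its 3 amplified members the cluster of miR-183 thus lay inside the range of the other groups in both samples. All members of the other groups were detected in both samples, whereas miR-96 was not. Without miR-96 the cluster spread over 1.47 cycles in vector cells, narrower than all the other groups. In ANGPTL1 cells it then spread over 2.67, wider than Xp11 alone.

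**Figure D3:**
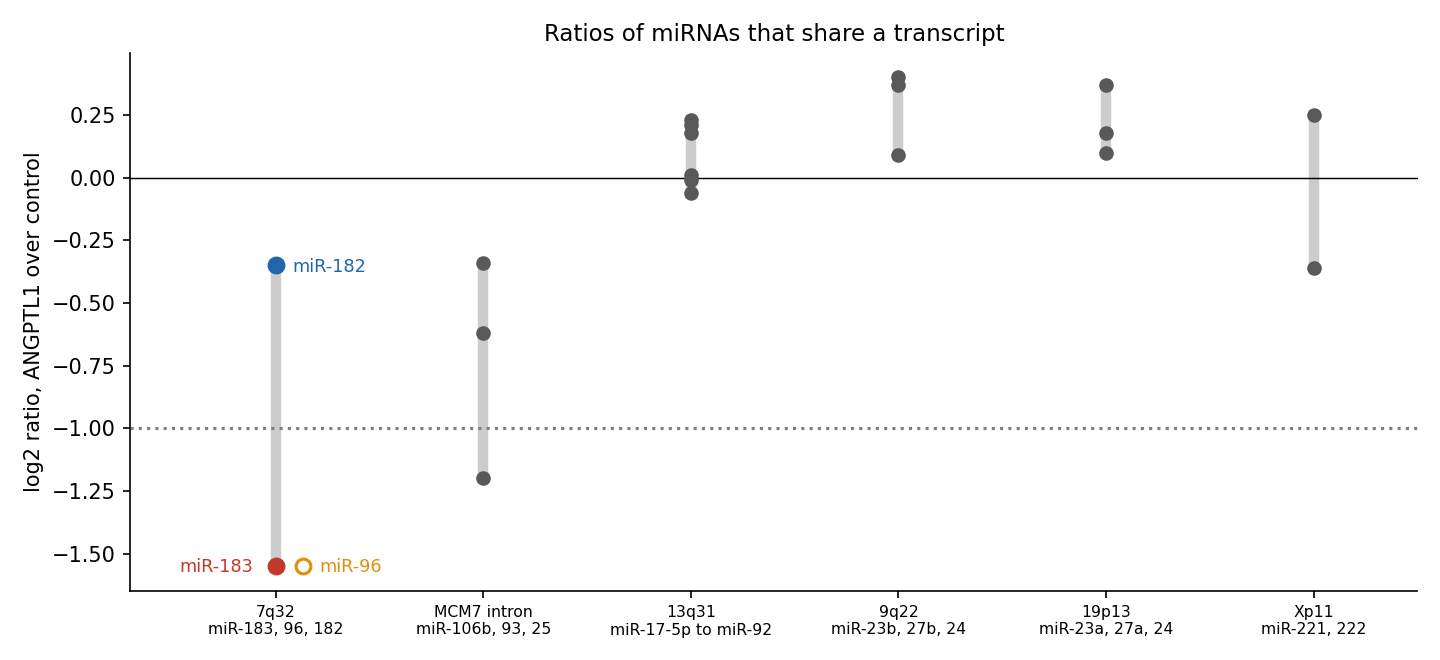
Log2 ratios of ANGPTL1 over control cells relative to RNU48 (vertical axis) for miRNAs that share a transcript (horizontal axis), 1 point per assay; grey bars run from the lowest to the highest ratio and the dotted line marks 2-fold lower. The 7q32 bar runs from -1.55 (miR-183) to -0.35 (miR-182, assay 4373271), with miR-96 drawn open at its deposited cycles, and the MCM7 bar from -1.20 to -0.34.

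The miRNAs most like each member were found by the distance over the 2 cycles, that of the control and that of ANGPTL1 cells, 1 value per sample. miR-182 (assay 4373271) was nearest to miR-425-5p, at a distance of 0.17 cycles, then to miR-192 (0.33) and miR-196a (0.40). Their log2 ratios were -0.58, -0.04 and -0.01. miR-183 was nearest to miR-550 (0.65 cycles), miR-335 (0.67) and miR-15a (0.73), with log2 ratios of -0.78, -0.61 and -0.79, all less low than that of miR-183. miR-96 was nearest to miR-375 (0.65 cycles), miR-449b (0.79) and miR-30e-5p (0.80). Each of these, like miR-96, was before cycle 35 in the control and after it in ANGPTL1 cells. Assays this near to miR-96 in both cycles had to fall on these sides of the limit, so this adds nothing to the distances.

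Among other miRNAs described to repress FOXO1, the shared target of miR-96 and miR-182, 4 of 5 listed names were on the card as used here, on 5 assays. Of these, 4 assays were detected in both samples and their median log2 ratio was -0.69, against -0.01 over all 145 assays so detected. This median rests on 4 assays and lies between the 2 that bear the name miR-9, a name that does not say which arm each reads. This list and those below were chosen with earlier results of these data known. The median therefore cannot show whether such miRNAs went the way of the cluster. Of the 4, 1 was at least 2-fold lower and 0 at least 2-fold higher, beside 4.83% and 7.59% of all 145 assays. miR-139 was that one, at -1.13. Both assays named miR-9 lay within 2-fold, at -0.75 and -0.63, and miR-27a was at 0.18. miR-223, a miRNA of myeloid cells, was detected in neither sample. Among 6 miRNAs described to repress MITF, the melanocyte transcription factor that miR-182 also represses, 4 were detected in both samples, all within 2-fold, with a median of -0.15 and a lowest value of -0.78 for miR-101. The other two, miR-137 and miR-218, were detected in ANGPTL1 cells alone, at least 4.96-fold and at least 1.48-fold higher. Over the card, 13 of 365 miRNA assays (3.56%) were detected in ANGPTL1 cells alone. Of miRNAs of the retina and other sensory tissue, in which the cluster is best known, both miR-9 assays were detected and miR-124a, miR-184, miR-204 and miR-211 in neither sample. The RNA of the targets was not measured on the card.

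On the whole card, 157 of 365 miRNA assays were detected in vector cells and 158 in ANGPTL1 cells. ANGPTL1 itself was not measured, so the overexpression cannot be checked in these data. Of 8 assays for epithelial miRNAs, 2 were detected, miR-200c and miR-203, while those of miR-141, miR-200a, miR-200b, miR-205 and miR-429 were not. miR-200c, which represses the factors ZEB1 and ZEB2, stood at a log2 ratio of 1.82 and miR-203 at -0.30, so neither was as low as miR-183. Markers of blood, muscle and fibroblasts were mostly late: 1 of 5 blood assays (miR-486), 1 of 4 muscle assays (miR-133b) and 1 of 5 fibroblast and smooth muscle assays (miR-199a) were detected in both samples. The blood markers did not all go the same way. miR-486 was at -3.58. The cycles of miR-142-3p were 34.51 in vector cells, before the limit, and 37.19 in ANGPTL1 cells, and those of miR-223 were 35.58 and 40 in the same order. Those of miR-142-5p were 38.73 and 36.3, and those of miR-451 were 38.5 and 36.83, earlier in ANGPTL1 cells but later than the limit in both samples. The part of other cells in the values of the cluster was not tested.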

How the data were processed

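Per the file headers, the authors deposited 3 tables: the average threshold cycle of each assay, delta Ct against RNU48, and the fold change as the ratio of ANGPTL1 over control cells. How many wells were averaged, where the threshold was set and with which software is not given in the sources used here. Delta Ct differed from the deposited cycles by at most 0.01. Log2 ratios were computed from delta Ct with Python 3.11.15, scipy 1.17.1, numpy 2.4.6 and pandas 2.3.3, and figures drawn with matplotlib 3.10.9. Detection meant a cycle below 35 and a difference meant at least 2-fold. The sign and the 2-fold calls were checked on simulated cards with known ratios, which were recovered; this checks the arithmetic and says nothing of noise. With 1 sample per group no test between the samples was run.

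Members and lists were chosen with earlier results of these data known. Named were the members, RNU48, the 3 assays nearest to each member by cycles, miRNAs of 5 other transcripts, and members of the FOXO1, MITF, sensory and marker lists. The band of 1 cycle, the efficiency of the PCR and the median of cycle differences as alternatives, and naming miR-422b, were chosen after seeing the data. Outside the list above, miR-95, miR-510 and miR-17-3p were named too, also with the data seen. Alternatives were other references, detection limits and thresholds. Blood, neuronal, muscle, fibroblast and epithelial markers were counted by spelling of the assay name; of 6 neuronal assays, 2 (both miR-9) were detected in both samples and 1 (miR-137) in ANGPTL1 cells alone.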

Additional observations from a re-analysis of the deposited data

How the results depend on the processing

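All 3 members that amplified stayed below 0 under every alternative run. Without normalization the log2 ratios of miR-183, miR-96 (as a bound) and miR-182 (assay 4373271) were -1.97, -0.97 and -0.77, and with the median cycle of each sample as reference -2.02, -1.02 and -0.82. That median was 29.25 in the control and 29.2 in ANGPTL1 cells, whereas the median of the cycle differences, 0.43, lay close to that of RNU48. With 1.9-fold template per cycle, an alternative chosen after seeing the data, the ratios were -1.44, -0.51 and -0.32, and with 1.8-fold -1.31, -0.47 and -0.30. The ratio of miR-96 was -1.55 with the authors' deposited fold change, with its deposited cycle, and with a limit of 38 or 40. The number of member assays at least 2-fold lower was 1 in the main setting. It was 2 with a limit of 38 (6.25% of all assays then detected in both samples) or 40 (6.42%), because miR-96 then counts, and 0 at 4-fold (1.38%). Without assay 4373271 of miR-182 the cycles spread over 4.75 in both samples, as against 6.22 and 7.42 with it, and the spread of ratios has no value, since 1 detected assay is left. Of 65 alternative values, 44 were the same, within 0.02 for ratios and 1.5 times for counts. Many of these could not differ, so the tally does not measure how firm the results are. A detection limit does not enter the ratios of miR-183 and miR-182, and the deposited fold change rests on the same cycles. The member assays detected in the control, 3 in the main setting and 2 with a limit of 32, were counted as the same. A limit of 32 leaves miR-96 without a value. Leaving out a replicate would empty a group. No paired analysis was possible because there was 1 sample in either group. The files give no spread between wells, so the precision of the late miR-96 cycles is unknown.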
